A study of Homo sapiens with 26 samples.

Results

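The canonical core and linker histone genes were followed through poly(A)-selected RNA sequencing of HCT116 cells, an epithelial colon cancer line, at rest and under arsenite stress. The genes were the protein-coding genes named H1-, H2AC, H2BC, H3C or H4C with a number, taken where their counts summed to at least 20 over the 26 libraries. Of 73 genes with such a name, 44 met this floor, out of 63086 genes in the count files. The 43 described were 4 genes of type H1, 11 of H2A, 13 of H2B, 6 of H3 and 9 of H4. On chromosome 6 lay 34 of the 43, on chromosome 1 another 7, and H4C16 and H1-10 lay on chromosomes 12 and 3. Just inside the floor were H4C11 with 46 counts and H1-6 with 50, and just outside it were H3C3 with 19 and H2BC8 with 12.

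The study asked how phosphorylation of the RNA-binding protein IGF2BP1 acts on RNA under stress. Cells lacking IGF2BP2 and IGF2BP3 (a Tet-OsTIR1-PURO line derived from sorted single cells) carried lentiviral mCherry-IGF2BP1 in 1 of 4 versions, called WT, S181E, Y396E and RQ. S181E and Y396E place a glutamate at a phosphorylated residue of a disordered linker, and RQ replaces arginines of a linker by glutamine. The mutant populations were sorted through a narrow mCherry gate and are not clones. Each population was taken untreated (control) or after 500 µM sodium arsenite for 2 hours, in 3 dishes each, giving 24 libraries in 8 groups, and parental HCT116 cells gave 1 control and 1 arsenite library. The RNA came from clarified lysates, so any RNA removed with the pellet was not measured.

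Histone proteins package DNA: H2A, H2B, H3 and H4 form the nucleosome core and H1 binds the linker DNA. The replication-dependent histone genes lie in clusters and are transcribed in S phase, when new DNA needs new histones. Their mRNAs normally end without a poly(A) tail. The transcript is cut just after a short stem-loop that is bound by SLBP, with the U7 small nuclear RNP directing the cut, and the mRNA is degraded when replication stops. Poly(A) selection is therefore meant to keep the fraction of such transcripts that carry a tail, and levels here do not stand for the total histone mRNA. Some RNA without a tail passed the selection as well, as given below. H1-10 lies outside the clusters and is known for an ordinary polyadenylated transcript, and several cluster genes are known to give polyadenylated transcripts as well.

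The stem-loop was read from the hg38 genome downstream of the stop codons of the GENCODE annotation, because it marks the end that a poly(A)-selected library should not see. The letters searched were a 16-base stem-loop pattern (GG, any 2 bases, CTTTT, any base, AG, any 2 bases, CC) on the sense strand, starting within 120 bases of the stop codon. They were found in 41 of the 43 genes (95.3%) and in 2 of 14332 other genes tested (0.014%), between 23 and 63 bases after the stop codon (median 37). No match lay in this window for H1-10 and H3C6. The sites below are shown 5′ to 3′ with 5 flanking bases, the core in capitals, for the genes that carry the levels and changes described further on. H1-2 is at chr6:26055739-26055764 (minus strand), H2AC25 at chr1:228457364-228457389 (minus strand), H2BC12 at chr6:27146361-27146386 (minus strand), H2BC5 at chr6:26158582-26158607 (plus strand), H2BC6 at chr6:26184205-26184230 (plus strand), H3C2 at chr6:26031592-26031617 (minus strand) and H4C3 at chr6:26104312-26104337 (plus strand).
H1-2: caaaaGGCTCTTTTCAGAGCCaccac
H2AC25: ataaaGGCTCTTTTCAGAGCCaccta
H2BC12: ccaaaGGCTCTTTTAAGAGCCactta
H2BC5: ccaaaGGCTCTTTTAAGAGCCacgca
H2BC6: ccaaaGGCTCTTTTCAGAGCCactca
H3C2: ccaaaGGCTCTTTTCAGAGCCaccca
H4C3: ccaaaGGCCCTTTTCAGGGCCgctca

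The core sequence set H4 apart from the other types. The 16 bases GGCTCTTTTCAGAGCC stood in 22 genes (2 of H1, 7 of H2A, 8 of H2B and 5 of H3) and no H4 gene. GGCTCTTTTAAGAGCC stood in 7, of which 5 were H2B genes, H2BC12 and H2BC5 among them. The 9 H4 genes had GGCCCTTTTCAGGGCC in 8 and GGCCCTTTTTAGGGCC in 1, and no other type had either. H2AC11, H2AC20 and H2AC15 each had a core of their own.

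The annotated exon ended at most 20 bases after the stem-loop in 30 of the 43 genes, ran past it in 11 and had no match in 2. The 11 were H2AC6, H2AC25, H2BC4, H2BC5, H2BC6, H2BC11, H2BC15, H2BC18, H2BC21, H2BC26 and H3C10, with 268 to 4551 exon bases beyond the site. A polyadenylation hexamer (AATAAA or ATTAAA, sense strand) lay in the last 50 exon bases of 9 of these 11, of 1 of the 30 and of both without a match. Together these were 12 of 43 (27.9%), against 78.2% of 14344 other genes tested. Of the 29 genes under the count floor, 25 ended at the stem-loop, 0 ran past it and 4 had no match.

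Levels were low. CPM are counts per 1e6 of TMM-scaled protein-coding reads, and CPM per kb of exon is used wherever genes are compared with each other. The median gene of the 43 was at 0.647 CPM per kb, against 4.50 for the 14388 protein-coding genes tested, and those ending at the stem-loop were at a median of 0.570 and those running past it at 1.22 CPM per kb. In CPM, 29 genes averaged under 1, 10 lay between 1 and 10, and 4 were at 10 or more: H1-10 (155), H1-2 (17.9), H2BC12 (16.4) and H2AC25 (15.5). H1-10 took 62.7% of the 191198 counts of the 43 genes in the 24 libraries, and the other 42 shared 71274 counts. Counting error is therefore large for most of them, and 17 of 43 had a count in every one of the 24 libraries, or 29 in every one of 23 without Y396E arsenite replicate 3, described next.

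**Figure D1:**
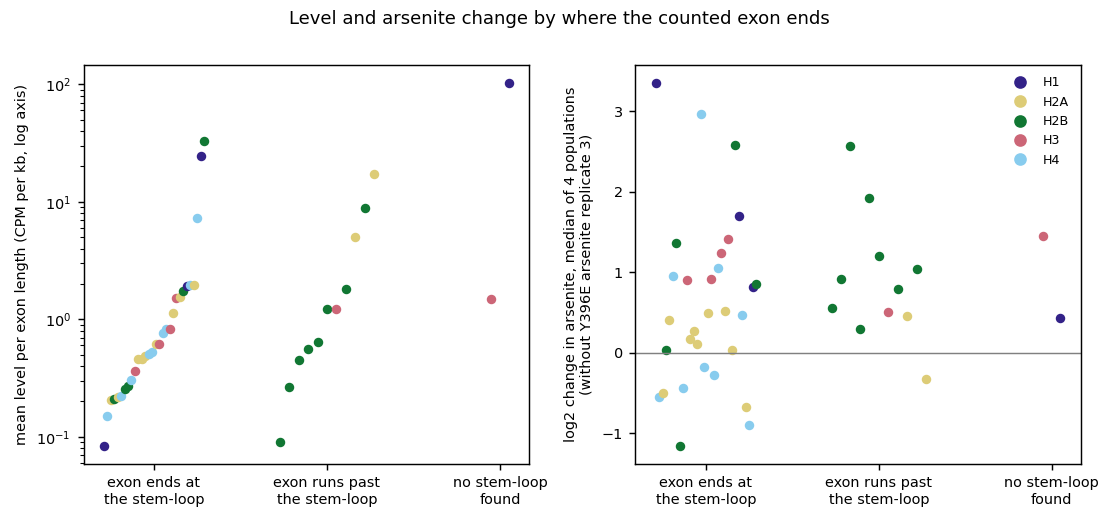
Left, CPM per kb of exon (log axis) of each of the 43 histone genes, the mean over 24 libraries, by whether the annotated exon ends at the stem-loop, runs past it, or has no stem-loop match; right, the median over the 4 populations of the log2 change in arsenite, without Y396E arsenite replicate 3. Each point is a gene, coloured by histone type, H1-10 stands above all others on the left, and both signs of change occur among genes that end at the stem-loop.

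Some stretches of the chromosome 6 cluster gave next to no reads. The 7 neighbouring genes H1-3, H4C6, H4C7, H3C7, H2BC9, H3C8 and H2BC10 (chr6:26234212-26273412, hg38) summed to 3 counts over the 26 libraries, and the 4 genes H2AC16, H1-5, H3C11 and H4C13 (chr6:27865317-27873534) to 1 count. These stretches were chosen after their values were seen. Reads that matched several places were left out of the counts, so near-identical copies cannot be read from these files. Of the 29 genes under the floor, 23 had every 100-base window unique in the genome, the 11 genes of both stretches included, while H2AC18, H2AC19, H3C14, H3C15, H4C14 and H4C15 had no unique window. Among the 23, H2AC7 and H3C4 had 0 counts and are uncertain. They shared 85.3% and 96.6% of their exon bases with another gene annotated on the same strand. Among the 43, every window was unique in 31, 5 were under 50% (H2AC13, H2AC14, H2BC18, H4C11 and H4C12) and are uncertain, and H2BC12 was at 77.5%.

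Protein-coding and other reads together came to between 22508145 and 50834401 counts a library. IGF2BP1 was at 10.5 to 46.7 CPM in the 24 libraries and at 0.347 and 0.634 CPM in the parental pair without the transgene. IGF2BP2 (60.1 to 90.2 CPM) and IGF2BP3 (107 to 166 CPM) kept mRNA in the cells labelled as lacking them, which does not check a protein knockout. The epithelial markers EPCAM, CDH1, KRT8 and KRT18 were present throughout (the lowest value was 24.9 CPM, for CDH1), with PTPRC at a median of 0 and PECAM1 at most 0.207 CPM. COL1A1 (6.32 to 11.4 CPM) and DES (2.90 to 7.77 CPM) were low. Y396E arsenite replicate 3 stood apart, with counts in 13897 genes against 20850 to 23473 in the others. In it 25 of the 43 histone genes were at 0, against 0 to 6 elsewhere in the 24, while H2AC20 (152 counts) and H3C2 (147) were high. Counts of called histone genes below are given with all 24 libraries and, where they differ, with the 23 that leave this library out. Shares of 16 RNAs known to lack a poly(A) tail (RN7SL1 the main part) also differed between libraries, from 13.96 to 151 summed CPM. They were at 27.7, 89.1 and 151 CPM in the WT controls and 56.0, 87.9 and 32.7 CPM in the RQ controls, against 18.8, 17.7 and 14.5 CPM in WT arsenite. In Y396E arsenite they were at 68.3, 18.6 and 23.9 CPM, so high values were not limited to controls. Y396E arsenite replicate 1 also had the highest H4 sum of its group (8.46 CPM, against 3.87 and 2.95 CPM). It stays in the fits that leave replicate 3 out, and the part of these RNAs in those results was not tested.

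The summed levels of H2B, H3 and cluster H1 transcripts were higher in arsenite in all 4 populations, without overlap between the 3 control and 3 arsenite libraries, and the H2A and H4 sums overlapped. Sums over genes carry no test, since genes are not replicates. For H2B the WT libraries were at 23.3, 26.1 and 28.99 CPM in control and 50.9, 44.8 and 48.3 CPM in arsenite, a ratio of means of 1.84. S181E libraries were at 20.99, 22.6 and 18.6 CPM in control and 43.1, 41.4 and 42.7 CPM in arsenite (ratio 2.04). Y396E libraries were at 23.3, 21.1 and 23.1 CPM in control and 51.4, 42.7 and 30.2 CPM in arsenite (1.84, or 2.09 without replicate 3). RQ libraries were at 23.9, 24.3 and 19.4 CPM in control and 53.4, 50.2 and 51.6 CPM in arsenite (2.30). The control sums of the 4 populations lay between 18.6 and 29.0 CPM, and the arsenite sums between 30.2 and 53.4 CPM.

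H3 sums were lower and differed in the same direction. They were at 3.97, 5.21 and 7.29 CPM in control and 11.02, 9.26 and 10.1 CPM in arsenite in WT (ratio 1.84). In Y396E they were at 3.01, 3.42 and 3.12 CPM in control and 11.3, 8.52 and 8.26 CPM in arsenite (2.94, or 3.11 without replicate 3). The H3 ratios of S181E and RQ were 2.33 and 2.07, and no conditions overlapped. The 3 cluster H1 genes (H1-2, H1-4 and H1-6) summed to 13.2, 13.8 and 17.003 CPM in control and 25.5, 26.4 and 24.7 CPM in arsenite in WT, a ratio of 1.74. In S181E, Y396E and RQ the cluster H1 ratios were 1.91, 1.66 and 1.95. H2A sums gave ratios of 0.845, 0.953, 1.11 and 0.966 for WT, S181E, Y396E and RQ, with all conditions overlapping, and with scaling by library totals alone the S181E and RQ ratios lay on the other side of 1. H4 sums gave 0.659, 0.925, 1.33 and 0.549 in the same order, also overlapping. These sums depend heavily on H4C3, whose mean fell. In WT it made up 4.85 of the 6.94 CPM of H4 in control and 2.09 of 4.57 CPM in arsenite. In RQ it made up 5.66 of 7.41 CPM in control and 1.69 of 4.07 CPM in arsenite. Of the 9 H4 genes, 4, 7, 6 and 4 had a log2 change above 0 in WT, S181E, Y396E and RQ. A changed share of cells in S phase and a changed amount of RNA per cell cannot be told apart in bulk RNA.

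**Figure D2:**
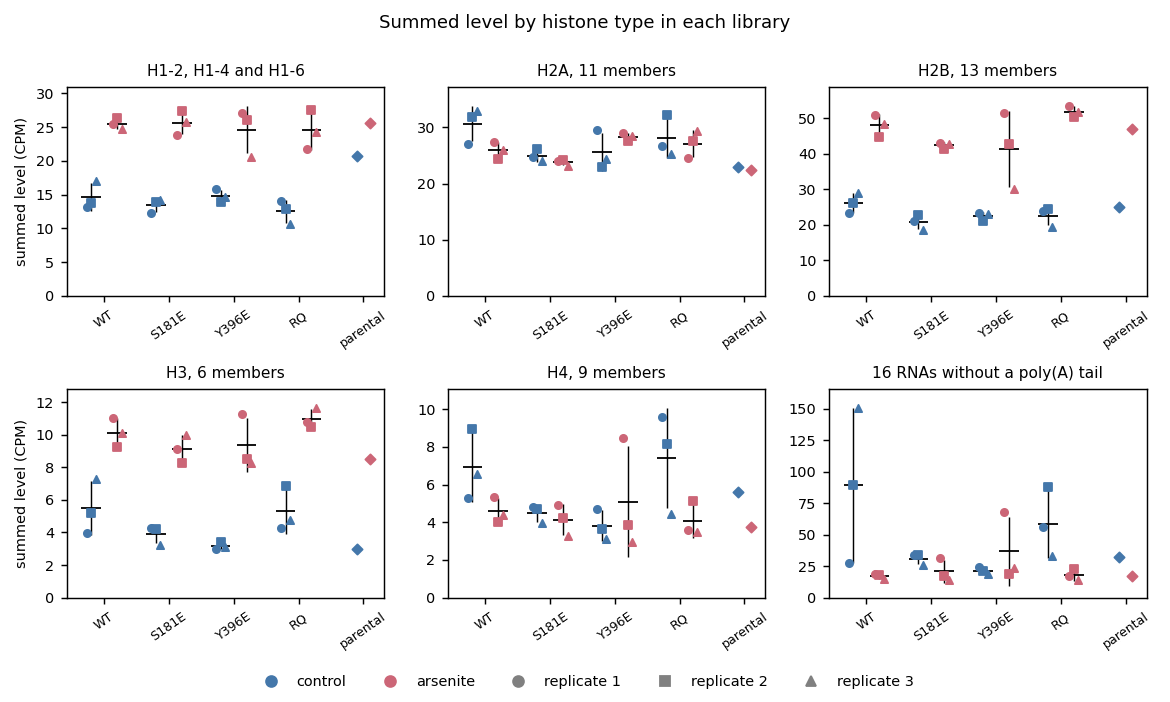
Summed CPM of the genes of each histone type, and of 16 RNAs without a poly(A) tail, in every library, control (blue) beside arsenite (red) for WT, S181E, Y396E and RQ, with the parental pair as diamonds and H1-10 left out of H1. Marker shapes stand for replicates, horizontal bars for means and vertical lines for ± SD (n = 3), and H2B, H3 and H1 points separate by condition within each population while H2A and H4 points overlap.

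Gene by gene, each change was tested with edgeR's quasi-likelihood test over all 14388 protein-coding genes, and called at a Benjamini-Hochberg adjusted p under 0.05 with a fold above 1.2. Changes are log2 fold changes ± SE. The SE was derived from the test, as the absolute log2 change divided by the square root of its F statistic. In WT cells 9 of the 43 genes were called higher and 2 lower in arsenite, against 27.9% and 27.3% of all genes tested. In S181E the counts were 13 and 1 (24.5% and 25.3% of all genes), in Y396E 14 and 0 (26.8% and 25.8%), and in RQ 15 and 2 (29.1% and 27%). With 24 libraries the numbers called higher were near these shares and the numbers called lower were below them, with no test of the difference made. Without Y396E arsenite replicate 3 the counts were 13 and 4 in WT (30.5% and 30.1% of all genes), 16 and 2 in S181E (27.3% and 27.7%), 23 and 0 in Y396E (27.6% and 26.2%), and 16 and 2 in RQ (31.6% and 29.4%). The median change over the 43 genes was 0.25, 0.54, 0.89 (1.103 without the replicate) and 0.57 in WT, S181E, Y396E and RQ, beside medians of all genes between -0.04 and 0. One gene, H1-6, had a control group entirely at 0, and without it the medians were 0.20, 0.53, 0.91 and 0.56.

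In all 4 populations 8 genes were called higher, namely H1-10, H1-2, H2BC5, H2BC6, H2BC12, H2BC17, H2BC21 and H3C6 (20.1% of all genes). Without Y396E arsenite replicate 3 they were 12 (22.4% of all genes), with H1-4, H2BC15, H3C2 and H4C8 added. In at least 1 population 17 were called higher (35% of all genes), or 25 without it (37.1%), and H2AC25 and H4C3 were the 2 called lower in any (34.1%), or 4 without it (36.3%). With 24 libraries the numbers called higher were again near the shares of all genes. H2B supplied more called rises than any other type with 24 libraries: 6, 6, 7 and 7 of its 13 genes were called higher in WT, S181E, Y396E and RQ (6, 7, 7 and 7 with 23) and 0 lower. For H1 the numbers called higher were 2, 4, 3 and 4 of 4 (3, 4, 3 and 4 with 23). For H3 they were 1, 2, 2 and 2 of 6 (2, 3, 5 and 3 with 23). For H2A they were 0, 1, 1 and 1 of 11 (0, 1, 4 and 1), and for H4 0, 0, 1 and 1 of 9 (2, 1, 4 and 1).

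**Figure D3:**
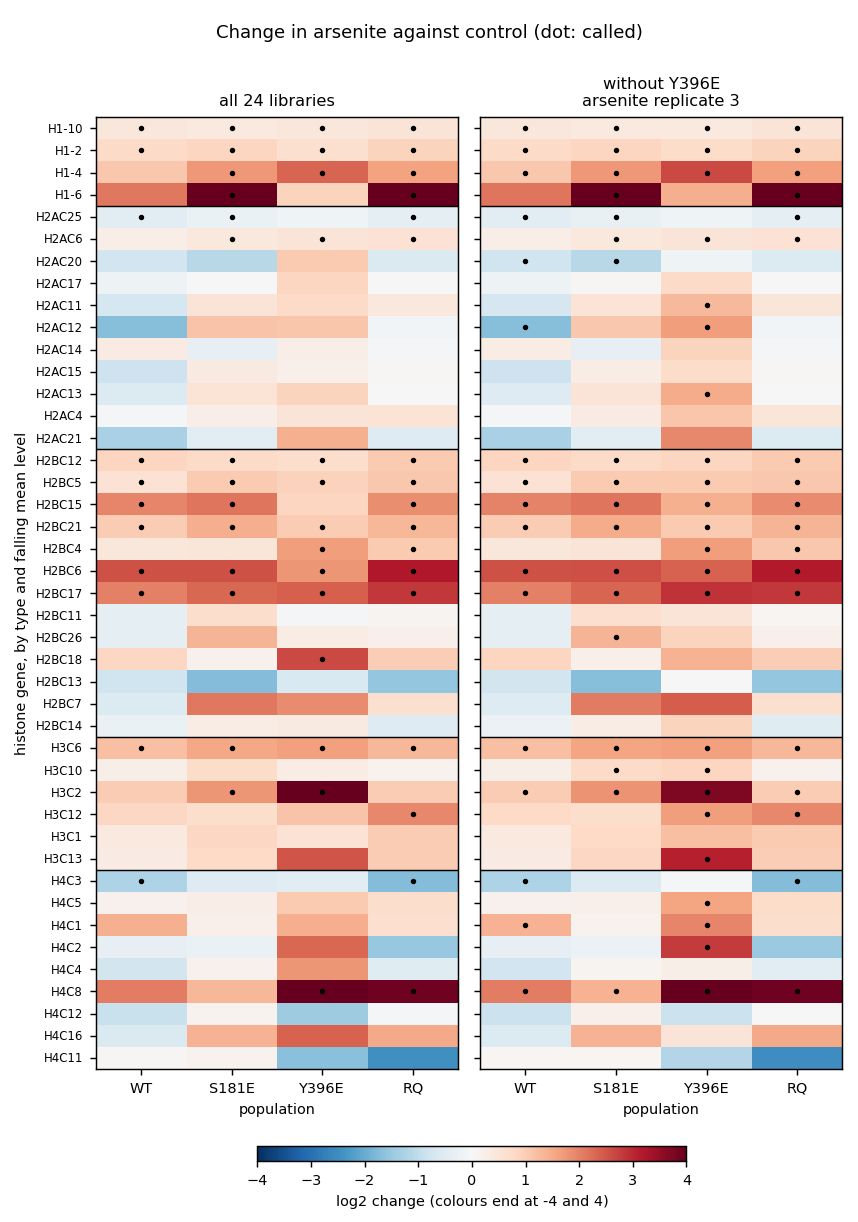
Log2 change in arsenite (colour) of each of the 43 histone genes (rows, by type and falling mean level) in WT, S181E, Y396E and RQ (columns), with all 24 libraries on the left and without Y396E arsenite replicate 3 on the right; a dot marks a called change. The H1 and H2B blocks hold most of the called rises, and H2AC25 and H4C3 are the called falls on the left.

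Among the linker histones, H1-10, a variant expressed through the cycle, was at 125, 111 and 121 CPM in control and 157, 164 and 172 CPM in arsenite in WT and rose by 0.46 ± 0.06 (adjusted p = 5.60e-08), with 0.38, 0.45 and 0.50 in the other populations.

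H1-2, a replication-dependent linker histone whose exon ends 4 bases after the stem-loop, was at 13.02, 13.02 and 14.8 CPM in control and 23.4, 24.04 and 22.5 CPM in arsenite in WT. It rose by 0.78 ± 0.11 (adjusted p = 6.59e-07) there. Its rises in S181E, Y396E and RQ were 0.86, 0.64 and 0.90, and no libraries overlapped within a population. H1-4, another S-phase linker histone, was scattered in the WT controls (0.154, 0.703 and 2.24 CPM, against 2.06 to 2.26 CPM in arsenite) and was not called there with 24 libraries (1.06 ± 0.51, adjusted p = 0.0789), and was with 23 (1.09 ± 0.36, adjusted p = 0.00693). It rose by 1.74 ± 0.53 (adjusted p = 0.00681) in S181E, 2.34 ± 0.56 (adjusted p = 0.000871) in Y396E and 1.62 ± 0.53 (adjusted p = 0.00933) in RQ, where the call was lost without RQ control replicate 3 (1.29). H1-6, the testis linker histone, was named after its values were seen: it had 0 counts in all S181E and RQ control libraries and 6, 0 and 2 counts in S181E arsenite and 6, 8 and 7 in RQ arsenite, and both differences passed the test. The S181E call for H1-6 was lost without any 1 of its 3 controls or arsenite replicate 1.

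H2A had 1 gene that rose in more than 1 population. Its main transcript, H2AC25, a gene on chromosome 1 whose exon runs 390 bases past the stem-loop, was at 17.03, 19.1 and 17.6 CPM in control and 14.6, 12.3 and 12.96 CPM in arsenite in WT. The 3 arsenite libraries were all below the 3 controls, and it fell by 0.44 ± 0.11 on the log2 scale (adjusted p = 0.00125). H2AC25 also fell in S181E, by 0.28 ± 0.11 (adjusted p = 0.0356), with overlapping libraries and a call lost without RQ arsenite replicate 2, S181E control replicate 2 or 3 or S181E arsenite replicate 1 or 3 (changes from -0.39 to -0.20), and in RQ, by 0.36 ± 0.11 (adjusted p = 0.00581), lost without RQ control replicate 2 (-0.26), and it was not called in Y396E (-0.18 ± 0.11, adjusted p = 0.174). With library totals alone in place of TMM scaling the differences were -0.25, -0.20 and -0.18 and none was called. H2AC6, at 7.51, 8.19 and 8.07 CPM in control and 9.42, 9.09 and 9.86 CPM in arsenite in WT (0.26 ± 0.13, adjusted p = 0.0841, not called), rose in S181E (0.41 ± 0.13, adjusted p = 0.00900; lost without S181E control or arsenite replicate 3, from 0.33 to 0.51 over all left-out libraries), Y396E (0.51 ± 0.13, adjusted p = 0.00127) and RQ (0.57 ± 0.13, adjusted p = 0.000368). H2AC20, the third H2A gene by CPM, was at 0.930, 0.854 and 0.773 CPM in control and 0.836, 0.705 and 3.74 CPM in arsenite in Y396E. Its difference there was 1.05 ± 0.49 (adjusted p = 0.0673) with the library that stood apart and -0.16 without it, neither called. The test called it in no other population with 24 libraries, and called it lower in WT (-0.80 ± 0.32, adjusted p = 0.0241) and S181E (-1.11 ± 0.30, adjusted p = 0.00139) with 23.

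**Figure D4:**
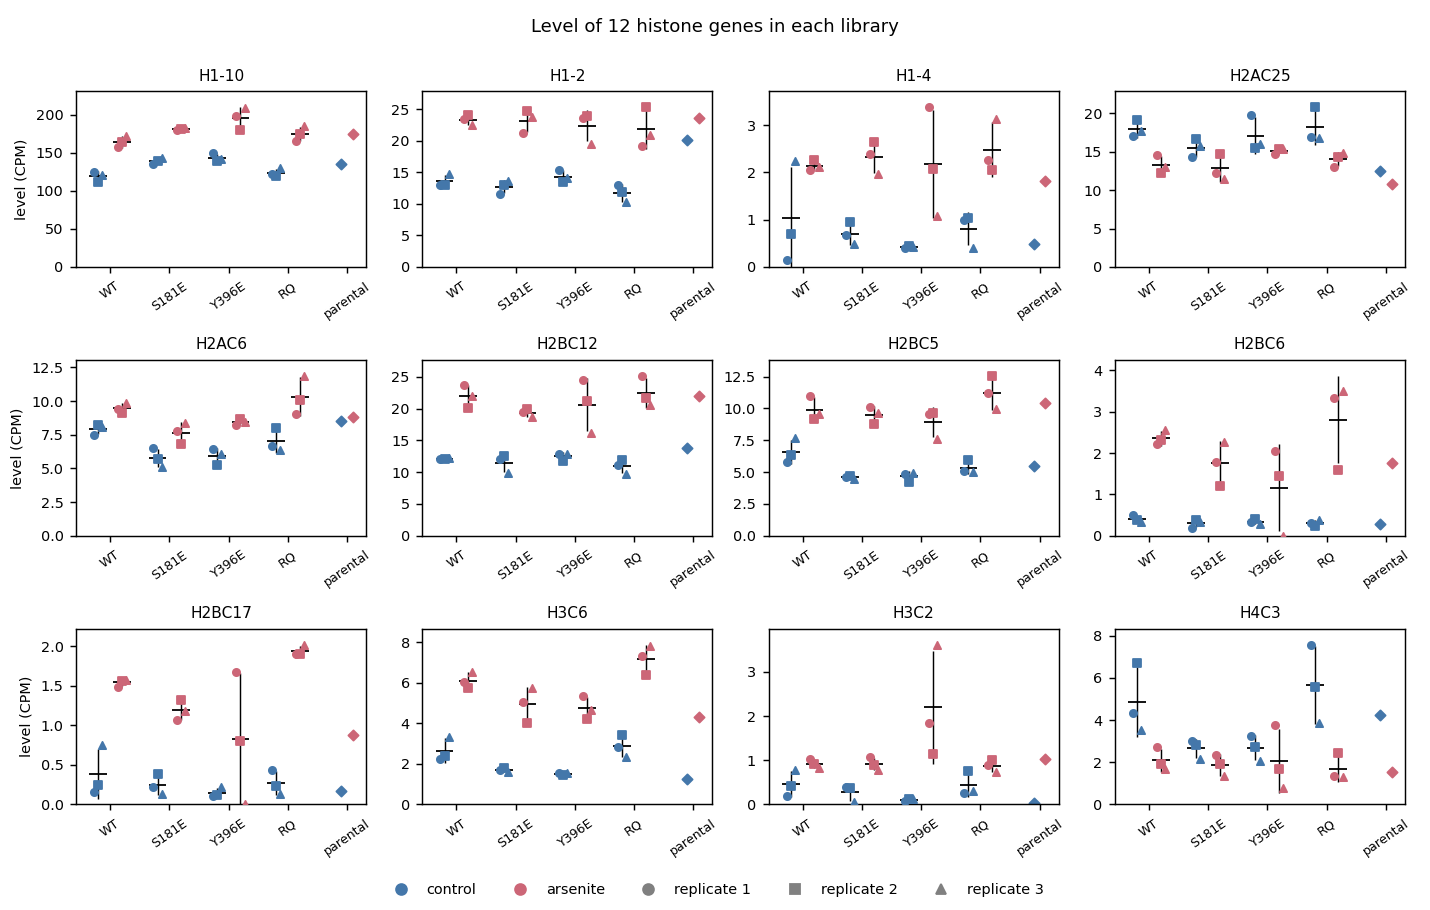
CPM (linear axes from 0) of 12 histone genes in each library, control (blue) beside arsenite (red) in each population, with the parental pair as diamonds; marker shapes are replicates, horizontal bars group means and vertical lines ± SD (n = 3). Control and arsenite points of H1-2, H2BC5, H2BC12 and H3C6 do not overlap within any of the 4 populations.

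H2B was the type with the most called rises. H2BC12, the most abundant of them, ends 5 bases after the stem-loop in the annotation. It was at 12.01, 11.99 and 12.2 CPM in control and 23.7, 20.05 and 21.9 CPM in arsenite in WT and at 11.1, 11.9 and 9.68 CPM in control and 25.1, 21.6 and 20.5 CPM in arsenite in RQ. It rose by 0.86 ± 0.12 (adjusted p = 8.48e-07) and 1.04 ± 0.12 (adjusted p = 4.34e-08) there, by 0.76 in S181E and by 0.72 in Y396E. In every population each arsenite library was above each control. H2BC5, whose exon runs 380 bases past the stem-loop, was at 5.76, 6.37 and 7.65 CPM in control and 11.02, 9.16 and 9.58 CPM in arsenite in WT and at 4.63, 4.68 and 4.46 CPM in control and 10.1, 8.77 and 9.62 CPM in arsenite in S181E. It rose by 0.59 ± 0.13 (adjusted p = 0.000391) in WT and 1.05 ± 0.14 (adjusted p = 2.67e-07) in S181E, and by 0.93 and 1.07 in Y396E and RQ.

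The largest called H2B changes belonged to genes of low level. H2BC6 was at 0.493, 0.372 and 0.320 CPM in control and 2.21, 2.31 and 2.56 CPM in arsenite in WT and at 0.299, 0.238 and 0.369 CPM in control and 3.33, 1.59 and 3.50 CPM in arsenite in RQ. It rose by 2.56 ± 0.67 (adjusted p = 0.00174) in WT, 2.56 ± 0.69 (adjusted p = 0.00260) in S181E and 3.19 ± 0.70 (adjusted p = 0.000264) in RQ. In Y396E it was at 0.322, 0.407 and 0.278 CPM in control and 2.04, 1.45 and 0 CPM in arsenite, with a change of 1.77 ± 0.70 (adjusted p = 0.0311), or 2.35 without replicate 3, and the call was lost without any 1 of the other 5 Y396E libraries (from 1.16). H2BC15, whose exon runs 3704 bases past the stem-loop, was at 1.08, 1.12 and 1.21 CPM in control and 4.04, 4.01 and 5.24 CPM in arsenite in WT. It rose by 1.97 ± 0.61 (adjusted p = 0.00711), 2.14 ± 0.62 (adjusted p = 0.00430) and 1.87 ± 0.60 (adjusted p = 0.00840) in WT, S181E and RQ, the last lost without RQ control replicate 3 (1.56). Its 3 Y396E arsenite libraries were at 4.85, 3.45 and 0 CPM, so the difference of 0.86 was not called, whereas without the replicate at 0 it was called at 1.42 ± 0.21 (adjusted p = 1.84e-07). H2BC17, a gene ending at the stem-loop, was at 0.154, 0.248 and 0.747 CPM in control and 1.49, 1.56 and 1.57 CPM in arsenite in WT. It rose by 2.00 ± 0.72 (adjusted p = 0.0190) there, a call lost without WT control replicate 1 or 2 (from 1.61 to 2.94). It rose by 2.30 in S181E (lost without S181E control replicate 3), 2.38 in Y396E (lost without Y396E control or arsenite replicate 1) and 2.83 in RQ. H2BC21 on chromosome 1, with 1729 exon bases past the stem-loop, rose in all 4, by 1.02, 1.46, 1.01 and 1.34. H2BC4 was not called in WT (0.45 ± 0.40, adjusted p = 0.352) or S181E (0.48 ± 0.42, adjusted p = 0.360) and rose in Y396E (1.67 ± 0.43, adjusted p = 0.00146) and RQ (1.05 ± 0.42, adjusted p = 0.0331), the latter with overlapping libraries and lost without RQ control replicate 3 or RQ arsenite replicate 2 or 3 (from 0.68). H2BC18, also named after its values were seen, was called in Y396E alone, with 7, 2 and 1 counts in control and 15, 10 and 65 in arsenite, and the call was lost without Y396E arsenite replicate 3 (1.40).

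H3 gave 1 gene that rose in every population with 24 libraries, and H3C2 joined it with 23. H3C6, the gene of this type without a stem-loop match, was at 2.22, 2.40 and 3.34 CPM in control and 6.06, 5.72 and 6.53 CPM in arsenite in WT and at 1.54, 1.42 and 1.55 CPM in control and 5.35, 4.23 and 4.65 CPM in arsenite in Y396E. It rose by 1.202 ± 0.18 (adjusted p = 2.23e-06) in WT and 1.65 ± 0.19 (adjusted p = 4.79e-08) in Y396E. In S181E it rose by 1.55 ± 0.19 (adjusted p = 1.02e-07) and in RQ by 1.33 ± 0.18 (adjusted p = 4.21e-07), and no libraries overlapped. H3C2, which ends 8 bases after the stem-loop, was at 0.0716, 0.122 and 0.124 CPM in control and 1.84, 1.14 and 3.62 CPM in arsenite in Y396E. It rose there by 4.32 ± 0.65 (adjusted p = 2.45e-06), or by 3.73 ± 0.54 (adjusted p = 9.97e-08) without replicate 3. Its WT libraries were at 0.185, 0.413 and 0.783 CPM in control and 1.03, 0.914 and 0.826 CPM in arsenite, a difference of 1.00 ± 0.55 (adjusted p = 0.120) that was not called although the libraries did not overlap, and it was called with 23 libraries (1.01 ± 0.41, adjusted p = 0.0282). It was called in S181E (1.77 ± 0.58, adjusted p = 0.0114; lost without S181E control replicate 3, with 1.25 as the lowest value) and not in RQ (1.01 ± 0.56 (adjusted p = 0.125), or with 23 libraries called at 1.02 ± 0.43 (adjusted p = 0.0320)). H3C10 was called in none of the 4 with 24 libraries, with differences between 0.15 and 0.73, and in S181E and Y396E with 23. H3C12 was called in RQ alone with 24 libraries (1.92 ± 0.81, adjusted p = 0.0443), a call lost on leaving out any of 14 libraries (from 1.499 to 2.25), and its differences elsewhere were between 0.71 and 1.13. With 23 it was also called in Y396E (1.67 ± 0.63, adjusted p = 0.0192).

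H4 held a gene that fell. H4C3 was at 4.34, 6.70 and 3.52 CPM in control and 2.71, 1.90 and 1.68 CPM in arsenite in WT and at 7.57, 5.55 and 3.85 CPM in control and 1.33, 2.42 and 1.32 CPM in arsenite in RQ. It fell by 1.22 ± 0.39 (adjusted p = 0.00809) and by 1.73 ± 0.40 (adjusted p = 0.000432) on the log2 scale. The WT call was lost without WT control replicate 2, with a difference of -0.92 then. In S181E and Y396E its differences were -0.53 ± 0.40 (adjusted p = 0.285) and -0.41 ± 0.39 (adjusted p = 0.394), neither called. H4C3 was highest in the WT and RQ controls, the groups in which the summed RNAs without a poly(A) tail also reached their highest values. Within these groups the libraries were not in the same order. Those RNAs were at 27.7, 89.1 and 151 CPM in the WT controls and 56.0, 87.9 and 32.7 CPM in the RQ controls. The part of these RNAs in the H4C3 difference was not tested. H4C5 and H4C1 were not called in any population with 24 libraries. With 23, H4C1 was called higher in WT (1.40 ± 0.52, adjusted p = 0.0158) and Y396E (1.96 ± 0.58, adjusted p = 0.00326) and H4C5 in Y396E (1.59 ± 0.47, adjusted p = 0.00341), where H4C2, named after its values were seen, was called too. H4C8, named after its values were seen, supplied the called H4 rises in Y396E (1, 0 and 0 counts in control and 16, 20 and 0 in arsenite) and RQ (0, 1 and 1 counts in control and 13, 7 and 16 in arsenite). Both calls held with each library left out in turn, on counts this low, and with 23 libraries H4C8 was also called in WT (2.05 ± 0.69, adjusted p = 0.00766) and S181E (1.38 ± 0.61, adjusted p = 0.0463).

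Genes called higher were found in every exon class. Of the 30 genes ending at the stem-loop, 3, 6, 6 and 7 were called higher in WT, S181E, Y396E and RQ, and of the 11 running past it 4, 5, 6 and 6, against 27.9%, 24.5%, 26.8% and 29.1% of all genes. With 23 libraries the numbers were 7, 7, 14 and 8 of 30 and 4, 7, 7 and 6 of 11. In both settings the 2 without a match rose in all 4. The summed ratio in arsenite was 1.46, 1.62, 1.72 and 1.64 for the genes ending at the stem-loop and 1.203, 1.41, 1.32 and 1.41 for those running past it, with no overlap between conditions in any population. The first set of ratios depends heavily on H1-2 and H2BC12. In WT these were at 13.6 and 12.1 of the 40.6 CPM of the class ending at the stem-loop in control. In arsenite they were at 23.3 and 21.9 of its 59.2 CPM. The median change of the 30 genes was -0.14 in WT, with 14 above 0, and 0.44, 0.97 and 0.495 in S181E, Y396E and RQ. For the 11 genes it was 0.45, 0.73, 0.86 and 0.99. The second set of ratios depends heavily on H2AC25, whose mean fell. In WT it made up 17.9 of the 40.6 CPM of that class in control and 13.3 of the 48.8 CPM in arsenite. The order of the summed ratios is therefore not a trait of the class. Within H2B the order was turned in all 4, with nearly equal ratios in WT: 1.83, 1.73, 1.69 and 2.13 for genes ending there and 1.84, 2.47, 2.04 and 2.48 for genes running past. No test was made between the classes, whose members differ in level.

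The next comparison asked whether the version of IGF2BP1 changed histone transcripts in unstressed cells. These comparisons share the 3 WT control libraries. In S181E 4 of the 43 genes were called lower than in WT and 0 higher, against 10.9% and 12.1% of all genes, or 6 lower and 0 higher against 13.9% and 14.2% in 23 libraries. In Y396E 5 were called lower and 1 higher, against 11% and 10.2% of all genes, or 9 lower and 1 higher against 13.9% and 12.6%. In RQ edgeR and DESeq2 each called 0 genes (1 at an unadjusted p under 0.05 in edgeR), against 0.862% of all genes, and edgeR called 0 against 2.28% in 23 libraries. The median difference of the 43 genes was -0.56 in S181E, -0.67 in Y396E and -0.38 in RQ, beside medians of all genes between -0.01 and 0.01. The WT controls, shared by all 3, were the group with the widest range of RNAs without a poly(A) tail, whose part in these medians was not tested.

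H2BC5, H2AC6 and H3C6 were lower than in WT in both phosphomimetic populations. H2BC5 was at 5.76, 6.37 and 7.65 CPM in the WT controls, at 4.63, 4.68 and 4.46 in S181E and at 4.83, 4.23 and 4.95 in Y396E, differing from WT by -0.52 ± 0.14 (adjusted p = 0.00481) and -0.49 ± 0.14 (adjusted p = 0.00870). All 6 mutant libraries lay below all 3 WT libraries, and the Y396E call was lost without WT control replicate 3 (-0.37). H2AC6 differed by -0.46 ± 0.13 (adjusted p = 0.00788) in S181E and -0.41 ± 0.13 (adjusted p = 0.0172) in Y396E, and H3C6 by -0.65 ± 0.20 (adjusted p = 0.0125) and -0.81 ± 0.20 (adjusted p = 0.00296). Of these, H2BC5 in S181E and H3C6 in Y396E held with each library left out in turn. H2BC21 was lower in S181E (-0.86 ± 0.27, adjusted p = 0.0168), and H2BC4 (-1.20 ± 0.44, adjusted p = 0.0393) and H3C2 (-2.07 ± 0.70, adjusted p = 0.0270) in Y396E, and these calls were lost without any of 3, 5 and 4 libraries (differences from -1.09 to -0.60, -1.89 to -0.83 and -2.46 to -1.43). The H2BC4 call was also lost with library totals alone (-1.07), as were those of H2BC5 in Y396E (-0.36) and H2AC6 in S181E (-0.31) and Y396E (-0.28). The H2AC6 call was lost in S181E without S181E control replicate 3 (-0.38) and in Y396E without WT or Y396E control replicate 2 (from -0.34), and the H3C6 call in S181E without control replicate 3 of either group (from -0.45).

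One histone gene was higher than in WT in control cells. H1-10 was higher in Y396E (0.27 ± 0.06, adjusted p = 0.000622; lost without Y396E control replicate 1 or WT control replicate 2, from 0.22) and at 0.23 ± 0.06 (adjusted p = 0.00263) in S181E, under the fold of 1.2.

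In arsenite fewer histone genes were called against WT in S181E and Y396E than in control cells. The comparisons share the 3 WT arsenite libraries. In S181E 0 of 43 were called by edgeR or by DESeq2 (3 at an unadjusted p under 0.05 in edgeR), against 10.6% of all genes, and in RQ 0 by either tool (0 at an unadjusted p under 0.05), against 0.904%. In Y396E 1 was called, against 18.5%: H2AC20 (1.46 ± 0.49, adjusted p = 0.0306), which rested on replicate 3 and differed by 0.29 without it. With 23 libraries the counts were 3 in S181E (15.5% of all genes), 1 in Y396E (17.5%) and 0 in RQ (2.04%). The 3 genes in S181E were H2AC6 (-0.30 ± 0.11, adjusted p = 0.0395) and, named after their values were seen, H2BC18 and H2AC12, and the 1 gene in Y396E was H2AC12.

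**Figure D5:**
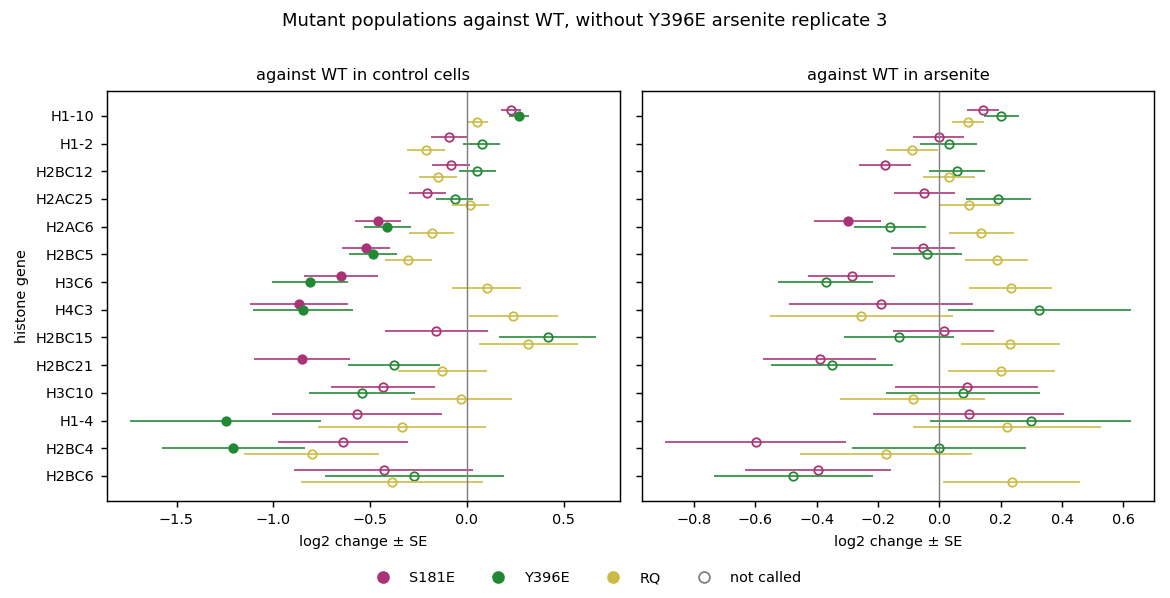
Log2 difference from WT of 14 histone genes in S181E, Y396E and RQ, in control cells (left) and in arsenite (right), fitted without Y396E arsenite replicate 3 (points: estimate; lines: ± SE; filled: called). H1-10 lies above 0 in all 3 in control cells, and H2BC5, H2AC6 and H3C6 lie below 0 in S181E and Y396E controls.

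Whether arsenite acted differently on histone transcripts in a mutant was tested as the difference of the responses. Its median over the 43 genes was 0.35 in S181E, 0.58 in Y396E (0.89 with 23 libraries) and 0.48 in RQ. It was above 0 in 33, 33 and 34 genes, beside medians of all genes between -0.03 and 0.01. The 3 mutants share the WT libraries, and the medians carry no test, since genes are not replicates. For S181E 0 of 43 genes were called by edgeR (2 at an unadjusted p under 0.05, 0 by DESeq2), against 9.19% of all genes, and 2 of 43 against 16.1% with 23 libraries, H2BC5 (0.47 ± 0.16, adjusted p = 0.0354) and H2AC12. For RQ 0 were called by either tool (1 at an unadjusted p under 0.05), against 0.132%, and 0 against 0.278% with 23 libraries. For Y396E 1 was called, against 11.9% of all genes: H3C2, whose response exceeded that in WT by 3.32 ± 0.86 (adjusted p = 0.0126), or 2.71 ± 0.74 (adjusted p = 0.00789) without replicate 3. That call held with each library left out, and DESeq2 gave 3.37 without calling it. The part of RNAs without a poly(A) tail in this difference was not tested. H3C2 was at 0.0716, 0.122 and 0.124 CPM in the Y396E controls, the control group with the lowest mean although 1 S181E control was lower (0.0541 CPM), and at 1.84, 1.14 and 3.62 CPM in arsenite. With 23 libraries 5 genes were called for Y396E, against 15.7% of all genes, the others being H4C3 and, named after their values were seen, H2AC11, H2AC12 and H4C2. A difference that was not called does not show that the responses were alike: for H2BC12 the response of RQ minus that of WT was 0.18 ± 0.17 (adjusted p = 1.00), and for H1-2 0.12 ± 0.15 (adjusted p = 1.00).

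The machinery of histone mRNA synthesis and 3′ end processing was read from a list of 20 genes. In arsenite 11, 10, 10 and 11 of them were called higher in WT, S181E, Y396E and RQ (27.9%, 24.5%, 26.8% and 29.1% of all genes), the same numbers with 23 libraries. Called lower were 4, 5, 4 and 4 (4, 6, 5 and 4 with 23), near the shares of all genes (27.3%, 25.3%, 25.8% and 27%). Their median changes were 0.54, 0.37, 0.29 and 0.56. In WT the largest changes were those of CPSF3, the endonuclease of the cleavage complex (1.61 ± 0.07, adjusted p = 4.04e-16), UPF1, a helicase needed for histone mRNA decay (1.43 ± 0.08, adjusted p = 6.78e-14), SRRT, a partner of the cap-binding complex (1.40 ± 0.06, adjusted p = 7.40e-17), and TUT7, a uridylyl transferase that acts on histone mRNA in decay (1.40 ± 0.09, adjusted p = 2.54e-13). SLBP, the stem-loop binding protein, was at 140.2, 132 and 136 CPM in control and 122, 128 and 123 CPM in arsenite in WT and at 168, 168 and 167 CPM in control and 132, 123 and 127 CPM in arsenite in S181E. It fell in S181E and Y396E, by 0.40 ± 0.04 in each (adjusted p = 9.72e-09 and 9.89e-09), whereas the differences in WT (-0.13 ± 0.04, adjusted p = 0.0103) and RQ (-0.22 ± 0.04, adjusted p = 8.62e-05) were under the fold of 1.2. SLBP was also higher than in WT in the S181E and Y396E controls (0.30 ± 0.04 (adjusted p = 4.15e-06) and 0.30 ± 0.04 (adjusted p = 6.74e-06)), the groups in which H2BC5, H2AC6 and H3C6 were lower. A link between these differences was not tested. NPAT, the coactivator of the histone gene clusters, was called in no population (differences between -0.01 and 0.14).

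Genes of S phase were read from a list of 16. Of these, 10, 9, 8 and 10 were called higher and 4, 5, 4 and 4 lower in WT, S181E, Y396E and RQ, with 24 and with 23 libraries, beside the same shares of all genes. In WT the largest rises were those of the replicative helicase subunits MCM2 (1.80 ± 0.11, adjusted p = 1.04e-13), MCM4 (1.501 ± 0.10, adjusted p = 4.34e-13), MCM3 (1.46 ± 0.08, adjusted p = 4.76e-14) and MCM6 (1.27 ± 0.08, adjusted p = 3.44e-13). In control cells 13 were called higher and 0 lower in S181E than in WT, and 10 higher and 1 lower in Y396E (12.1% and 10.2% of all genes were higher), with medians of 0.39 and 0.32, MCM2 at 0.85 ± 0.11 (adjusted p = 7.39e-07) and 0.72 ± 0.11 (adjusted p = 1.00e-05) among them. The histone genes in the same comparisons had medians of -0.56 and -0.67.

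The parental pair had 1 library per condition and so no test. H2B genes summed to 25.1 CPM in control and 46.9 in arsenite, H3 to 2.99 and 8.52, and cluster H1 to 20.7 and 25.6 CPM. H2BC12 was at 13.8 and 21.9 and H4C3 at 4.24 and 1.54 CPM, control first. In this pair too the H2B and H3 sums were higher in arsenite and H4C3 lower.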

How the data were processed

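Poly(A)-selected, strand-specific libraries of 26 HCT116 samples were read from the deposited gene counts, which the authors made by aligning reads to hg38 with STAR 2.7.11b and counting exons of GENCODE release 46 with featureCounts (Subread 2.0.6), leaving out reads with several matches. The counts are raw. Replicates are dishes plated independently.

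Symbols came from GENCODE release 44, which holds 62541 of the 63086 identifiers (99.1%). Histone genes were taken by symbol with at least 20 counts over the 26 libraries, and 1 of these 44 is not reported here. The 14388 protein-coding genes with as many counts were fitted with edgeR 4.0.16 (R 4.3.3): TMM scaling (factors 0.865 to 1.09), 8 group means, 24 libraries, 16 residual degrees of freedom, quasi-likelihood tests and Benjamini-Hochberg adjustment, as described in the study. The study kept genes above 10 CPM in a stated share of its libraries, applied here as 12 of the 24 (4 of the 43 genes pass). The 13 contrasts were arsenite against control in each population, each mutant against WT in each condition, and the differences of response. The scripts were tested on simulated counts. Genes were named if among the 3 highest of their type, at 10 CPM or more, or among the 3 largest called rises or falls of a contrast with a mean of at least 10 counts and no overlap. Of the other lists, SLBP, NPAT and up to 4 called genes with the largest change were named. The histone genes and all lists were chosen with earlier results of these data known.

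Only for RQ against WT, in control and in arsenite, did the deviations of every same-numbered pair correlate above 0.1 (0.296, 0.527 and 0.474 in control, 0.148, 0.144 and 0.153 in arsenite). With the replicate block, each of these comparisons still called 0 genes. DESeq2 1.42.0, other scalings, filters, gene sets, samples in the fit and left-out libraries were tried as alternatives. Depth was 22508145 to 50834401 counts a library, and no 2 replicates agreed within counting error.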

Additional observations from a re-analysis of the deposited data

Results flagged for a closer look

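H3C2, an H3 gene of the chromosome 6 cluster, was taken up because its arsenite responses in Y396E and WT differed by a test of the difference itself. The response in Y396E exceeded that in WT by 3.32 on the log2 scale with 24 libraries (edgeR, adjusted p = 0.0126) and by 2.71 without Y396E arsenite replicate 3 (adjusted p = 0.00789). All 3 Y396E arsenite libraries were above all 3 controls of that population, with 2, 3 and 4 counts in the controls. DESeq2 gave 3.37 and did not call it. Y396E arsenite replicate 3, the library that stood apart, held 147 counts of H3C2. In WT control replicates 1, 2 and 3 H3C2 was at 0.185, 0.413 and 0.783 CPM. The summed RNAs without a poly(A) tail were at 27.7, 89.1 and 151 CPM in the same libraries, and at 68.3, 18.6 and 23.9 CPM in Y396E arsenite. Their part in the H3C2 difference was not tested.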

How the results depend on the processing

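In order of WT, S181E, Y396E and RQ, the number of histone genes called in arsenite was 11, 14, 14 and 17. With the study's filter, which only 4 of the 43 pass, it was 4, 3, 3 and 4, with only the groups compared it was 17 in WT and 9 in Y396E, and leaving out 1 library at a time it lay between 9 and 17, 9 and 18, 13 and 23, and 13 and 18. For S181E against WT in control cells the 4 calls became 0 with that filter and 1 to 6 with a library left out. For Y396E against WT in control cells the 6 became 1 with that filter, 3 with library totals alone and 3 to 10 with a library left out. RQ against WT had 0 calls in control cells and in arsenite with each library left out. For S181E in arsenite the 0 calls became 5 when only the groups compared were fitted, and 0 to 3 with a library left out. For Y396E in arsenite the 1 became 2 with library totals, 0 with the study's filter or only the groups compared, 2 with no fold threshold and 0 to 6 with a library left out. For the difference of response, S181E had 2 with only the groups compared and 0 to 2 with a library left out, and the 1 call of Y396E became 0 with DESeq2 or the study's filter and 1 to 5 with a library left out.

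With the replicate block the Y396E arsenite count against WT became 0. The block without Y396E arsenite replicate 3, chosen after seeing the data, gave 17 calls for arsenite in WT, 23 for arsenite in Y396E, 11 for Y396E against WT in control cells, 3 for S181E in arsenite, and 2 and 6 for the S181E and Y396E responses. The block moved no other count by over 1.5 times. Outside RQ against WT, 5 of the 24 same-numbered pairs correlated above 0.1. Among them were Y396E against WT control replicate 3 (0.424) and S181E against WT control replicates 2 (0.238) and 3 (0.307). Some shared structure in these control comparisons can therefore not be excluded.

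The log2 ratios of summed H1, 0.504, 0.44, 0.48 and 0.55, became 0.68, 0.52, 0.56 and 0.73 with library totals and 0.80, 0.93, 0.74 and 0.97 without H1-10. For H2A, -0.24, -0.07 and -0.05 in WT, S181E and RQ became -0.063, 0.011 and 0.14 with library totals. Without H2AC25, an alternative chosen after seeing the data, the 4 were -0.012, 0.22, 0.63 and 0.40. For H2B, 0.88 in WT and 1.199 in RQ became 1.06 and 1.38 with library totals. Under that scaling the median change of all genes was 0.17 in WT and 0.18 in RQ. The causes were not tested. With a library left out, H2B ratios lay between 0.70 and 1.26 and H3 ratios between 0.70 and 1.64, while the ratios of H2A in RQ (-0.12 to 0.06), H4 in S181E (-0.25 to 0.03) and H4 in Y396E (-0.17 to 0.69) reached both signs. For 76 single-gene changes, called or not, 524 alternatives left the outcome as it was, 13 lost a call, 12 gained one and 0 turned direction. Leaving out a library is not in these numbers. Depth limits the 29 genes under 1 CPM.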

Other observations

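The replication-independent histone variants, which replace canonical histones outside S phase, included more called falls than rises. Of 10 listed variants, 2, 0, 0 and 1 were called higher and 5, 4, 3 and 5 lower in arsenite in WT, S181E, Y396E and RQ (edgeR), or 2 lower in Y396E with 23 libraries, against 27.3%, 25.3%, 25.8% and 27% of all genes called lower and 27.9%, 24.5%, 26.8% and 29.1% higher. In WT, H2AZ2 fell by 0.69 ± 0.07 on the log2 scale (adjusted p = 1.50e-09), H2AJ by 0.50 ± 0.09 (adjusted p = 2.62e-05) and H2AZ1 by 0.45 ± 0.06 (adjusted p = 2.64e-07), and MACROH2A2 rose by 0.37 ± 0.11 (adjusted p = 0.00404). Of these, H2AZ1 and H2AZ2 were called lower in all 4 populations with 24 and with 23 libraries. In control cells 2 variants were called higher in S181E than in WT and 1 in Y396E, and 0 lower in either.

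With H2AC25 left out, the remaining 10 H2A genes summed to ratios of 0.992, 1.16, 1.55 and 1.32 (arsenite to control in WT, S181E, Y396E and RQ), with no overlap between conditions in Y396E and RQ. This sum was chosen after the values of H2AC25 were seen and carries no test.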
